A study of Mus musculus with 4 samples.

Results

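Primary mouse hepatocytes given the LXR agonist GW3965 were compared with hepatocytes given DMSO for 8 genes that serve fatty acid oxidation and are known targets of the nuclear receptor PPARA. The 8 genes were Cpt1a, Cpt2, Ehhadh, Hadha, Acadm, Pdk4, Acot1 and Fgf21. They were found by the gene name that the array files give each probe, which picked out 10 probes among 55681. Of the 8 genes, 7 gave a signal well above background on all 4 arrays and were tested among 24637 genes, and Fgf21 did not. None of the 7 passed the test between GW3965 and DMSO (0 calls at an adjusted p under 0.05 by limma, and 0% of all genes tested). In 6 of the 7, by the brightest probe of each gene, replicate b lay below replicate a under both treatments (31.8% of all genes tested). In 6 of the 7, at least 1 of these replicate gaps was larger than the difference between the treatments (90.6% of all genes tested).

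The cells came from mice labelled bl6 and were plated with 10% FBS. They were then held overnight in 0.5% FBS with 5 µM simvastatin, a statin that blocks cholesterol synthesis, and 100 µM mevalonic acid, the product of the blocked step, in both groups. The GW3965 group (replicates a and b) received 1 µM GW3965, and the DMSO group (replicates a and b) received the solvent. The total RNA of each sample, labelled with Cy3, was put on an array of its own. Neither the labels nor the files say whether the 2 samples of a group came from separate animals or cultures, so the p-values measure only the spread between these samples. The treatment label of the GW3965 samples reads "LXR against GW3965" and was taken as the agonist that the series' design describes.

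Fatty acids reach the mitochondrial matrix as carnitine esters and are shortened there by beta-oxidation, while very long and dicarboxylic acids are shortened in peroxisomes. In liver, PPARA binds fatty acids, pairs with RXR and switches on the genes of these routes during fasting. LXR also pairs with RXR, binds oxysterols and drives genes of cholesterol efflux and fatty acid synthesis. Whether PPARA or LXR bound any gene was not measured here.

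Probes are 60 bases long, and the stretch shown for each is its last 30 bases (31 to 60), because every value below is the signal of that probe and not of the whole transcript. The capitals mark the longest run of A and T within the 30 bases shown, the leftmost where runs tie.
Cpt1a, A_51_P427674: cggagTATTcctgctagtacccaagtgtga
Cpt2, A_55_P2033650: tgTTTAAATAgaaataaacccagtgttgct
Hadha, A_52_P193029: gggcTTgctcctccatcagagtgccttctg
Acadm, A_51_P319879: TTTggacaatgattggtccttagccccgaa
Ehhadh, A_51_P462918: acctctgacggtacttctatcagAAAAATT
Acot1, A_55_P2038358: tgccaggAATAAAAAggaaccatgattaaa
Pdk4, A_51_P350453: tagatagatgcTAAATgcccaggcccactt
Fgf21, A_52_P235347: atttatcTTATTTATTTATTTTAgtttttt
The Fgf21 probe stands apart in sequence. Over its whole length 80% of its bases are A or T, a higher share than in 99.73% of the 55681 probes, and its longest run of A and T is 16 bases. The probes of the other 7 genes hold between 45% and 65% A and T.

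The promoters of all 8 genes were found in RefSeq (GRCm38.p6), from 250 bases before to 50 bases after the annotated start. They were searched on both strands for AGGTCA, the core that PPARA, LXR and RXR share with many nuclear receptors. Of the 8 promoters, 2 held it, and 16.3% of 32851 promoters did. The 2 stretches are shown with the core, read on the opposite strand as TGACCT, in capitals.
Cpt1a, chr19:3323183-3323236, plus strand: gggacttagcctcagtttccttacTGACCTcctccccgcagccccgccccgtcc
Acadm, chr3:153944863-153944893, minus strand: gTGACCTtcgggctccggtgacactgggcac
The core begins 94 bases before the annotated start in Cpt1a and 249 bases before it in Acadm. The direct repeat with 1 base between cores, AGGTCANAGGTCA, the arrangement PPARA and RXR are known for, was in 0 of the 8 windows and in 0.0396% of all promoters. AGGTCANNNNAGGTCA, the arrangement LXR and RXR are known for, was in 0 of the 8 and in 0.0152% of all promoters. These matches describe letters in a short window and are not binding sites.

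Signals are given on the log2 scale relative to each array's 75th percentile, so 0 is the signal at that percentile. They compare arrays within a probe, not genes with each other. Between 62.5% and 69.1% of probes were well above background on an array, and 0 were saturated. Of the genes outside the 8, a list of 8 known LXR targets had all 8 higher on both GW3965 arrays than on both DMSO arrays, as 9.41% of all genes tested were. That list was drawn up with results of these arrays known, so its count is a description and no independent evidence. Among them Abca1, the cholesterol exporter, had 3.31 and 3.85 in GW3965 replicates a and b, against 1.46 and 0.55 in DMSO replicates a and b. Its log2 difference was 2.58 ± 0.387 (SE, n = 2 each), with an adjusted p of 1.00 by limma. Abcg1, another sterol exporter, differed by 1.98 ± 0.292 and Srebf1, which drives fatty acid synthesis, by 1.24 ± 0.197, and neither passed the adjusted threshold in limma. With 2 arrays against 2, an exact two-sided permutation test of 1 gene cannot go below p = 0.333.

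Cpt1a encodes the outer membrane carnitine palmitoyltransferase, the rate-setting step of entry into the mitochondrion. Its probe lies at chr19:3385374-3385433 on the plus strand (mm9, as the files give it) and is printed 10 times on each array. Cpt1a had 1.43 and 1.23 in GW3965 replicates a and b, against 1.74 and 1.36 in DMSO replicates a and b. Both GW3965 values lay below DMSO replicate a, while GW3965 replicate a lay above DMSO replicate b, so the groups overlapped. The log2 difference was −0.22 ± 0.226 (SE, n = 2 each), with an interval of −0.81 to 0.37 at 95% and an unadjusted p of 0.371 by limma. Replicate b was below replicate a by 0.19 under GW3965 and by 0.37 under DMSO, so the gap within DMSO exceeded the difference between the treatments.

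The 10 spots of Cpt1a show the spread within an array. Their SD was 0.0423 and 0.0746 in GW3965 replicates a and b, and 0.0733 in DMSO replicate a. In DMSO replicate b it was 0.0463 over 9 spots, since 1 spot was marked as an outlier and left out. Spots ran from 1.35 to 1.48 in GW3965 replicate a and from 1.08 to 1.34 in GW3965 replicate b. They ran from 1.62 to 1.86 in DMSO replicate a and from 1.28 to 1.42 in DMSO replicate b. The spots of replicates a and b did not overlap within either treatment, and those of GW3965 replicate a and DMSO replicate b did. Spots of 1 array share their RNA and are not replicates of a treatment.

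**Figure D1:**
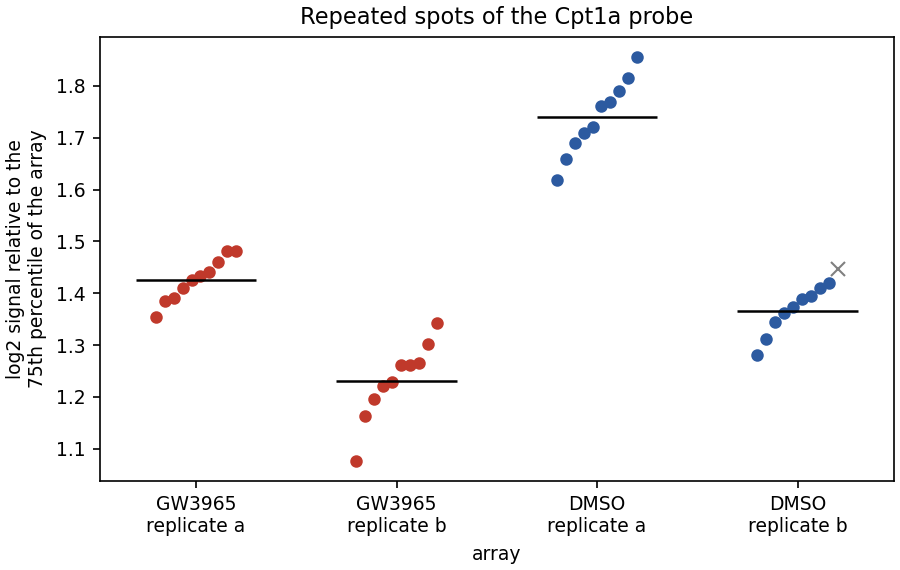
Log2 signal of each Cpt1a spot (vertical axis, relative to the array's 75th percentile) on the GW3965 and DMSO arrays (horizontal axis), with bars at the array means and a grey cross for the spot marked as an outlier. The spots of DMSO replicate a, from 1.62 to 1.86, lie above those of the other 3 arrays.

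A second Cpt1a probe, A_55_P2057405 at chr19:3384060-3384119, gave a dimmer signal. It had −1.65 and −1.80 in GW3965 replicates a and b, against −1.31 and −1.47 in DMSO replicates a and b. Here the 2 groups did not overlap, with both GW3965 arrays lower. By the brightest probe of each gene, that was so for 6.55% of all genes tested. Its log2 difference in a fit of each probe was −0.33 ± 0.198 (SE, n = 2 each), with an unadjusted p of 0.155 by limma. Both Cpt1a probes thus had the lower mean under GW3965, and both had replicate b below replicate a in both groups. The 2 probes read the same RNA samples and are not independent.

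Cpt2 encodes the inner membrane carnitine palmitoyltransferase, which hands the acyl group back to coenzyme A in the matrix. The Cpt2 probe maps to chr4:107576591-107576650 on the minus strand (mm9). Cpt2 had 3.16 and 2.87 in GW3965 replicates a and b, against 3.27 and 3.15 in DMSO replicates a and b. GW3965 replicate b was the lowest array, and GW3965 replicate a lay between the 2 DMSO arrays. The log2 difference was −0.19 ± 0.205 (SE, n = 2 each), with an interval of −0.73 to 0.35 and an unadjusted p of 0.398 by limma. The dimmer probe A_55_P2074174, at chr4:107580325-107580384, had −2.61 and −2.24 in GW3965 replicates a and b, against −2.25 and −2.39 in DMSO replicates a and b. The 2 Cpt2 probes disagreed on the replicates under GW3965: b was below a by 0.28 on the brighter probe and above it by 0.37 on the dimmer.

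Acadm encodes medium-chain acyl-CoA dehydrogenase, which takes the opening step of each cycle for medium-chain fatty acids. Its probe lies at chr3:153585670-153585729 on the minus strand (mm9). Acadm had 4.78 and 4.77 in GW3965 replicates a and b, against 4.85 and 4.72 in DMSO replicates a and b. Both GW3965 arrays lay between the DMSO arrays. The log2 difference was −0.0058 ± 0.184 (SE, n = 2 each), with an interval of −0.49 to 0.48. Its sign turned with quantile normalization (0.023) and without DMSO replicate a (0.060).

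Hadha encodes the alpha subunit of the mitochondrial trifunctional protein, which carries out later steps on long chains. The Hadha probe maps to chr5:30446215-30446274 on the minus strand (mm9). Hadha had 1.36 and 1.24 in GW3965 replicates a and b, against 1.26 and 1.03 in DMSO replicates a and b. DMSO replicate b was the lowest array, and GW3965 replicate b lay just under DMSO replicate a, so the groups overlapped. The log2 difference was 0.15 ± 0.198 (SE, n = 2 each), with an interval of −0.37 to 0.67.

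Ehhadh encodes the peroxisomal bifunctional enzyme, which hydrates and dehydrogenates dicarboxylic and other acyl chains. The Ehhadh probe maps to chr16:21761914-21761973 on the minus strand (mm9). Ehhadh had −0.54 and −1.44 in GW3965 replicates a and b, against −0.62 and −1.93 in DMSO replicates a and b. Both a arrays were high and both b arrays low, whichever treatment they had. The gaps of −0.89 under GW3965 and −1.30 under DMSO were larger than the log2 difference between treatments, 0.28 ± 0.545 (SE, n = 2 each; interval −1.14 to 1.71). Leaving out GW3965 replicate a turned that difference to −0.16, and leaving out DMSO replicate b turned it to −0.37. Both turns follow from the replicate gaps and are no separate test of direction. Between arrays of the same letter, GW3965 was above DMSO by 0.08 in a and by 0.49 in b. The labels do not say what the letters mark.

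Acot1 encodes a cytosolic acyl-CoA thioesterase, which frees fatty acids from coenzyme A. Its probe lies at chr12:85358561-85358620 on the plus strand (mm9). Acot1 had −0.22 and −1.19 in GW3965 replicates a and b, against −0.71 and −1.15 in DMSO replicates a and b. The highest and the lowest array were both GW3965 arrays. The log2 difference was 0.23 ± 0.392 (SE, n = 2 each; interval −0.80 to 1.25), and it was −0.26 without GW3965 replicate a. Acot1 belongs to a family of near-identical copies, and its signal is uncertain for that reason. Acot2, the mitochondrial member of that family, had −2.93 and 0.68 in GW3965 replicates a and b, against −2.73 and 0.45 in DMSO replicates a and b. Replicate b was thus higher by 3.61 and 3.19 for Acot2, the opposite direction to Acot1. Its difference between treatments was 0.016 ± 1.58 (SE, n = 2 each). How much either probe binds the other copy's transcript was not tested.

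Pdk4 encodes a kinase that switches off pyruvate dehydrogenase, so that glucose carbon is spared while fat is burned. The Pdk4 probe maps to chr6:5433441-5433500 on the minus strand (mm9). Pdk4 had 0.76 and 0.71 in GW3965 replicates a and b, against 0.40 and 0.52 in DMSO replicates a and b. By the probe that stands for each gene, the brightest one, it was the 1 gene of the 7 whose groups did not overlap, with both GW3965 arrays above both DMSO arrays, as in 9.41% of all genes tested. The log2 difference was 0.27 ± 0.184 (SE, n = 2 each), a fold of 1.21, with an interval of −0.21 to 0.76 and an unadjusted p of 0.199 by limma. By the same probes it was also the 1 gene of the 7 whose replicates did not run the same way in both groups, with a gap of −0.05 under GW3965 and 0.12 under DMSO. Among all genes tested, 24.9% had gaps of opposite direction.

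Fgf21 encodes a hormone that the fasted or stressed liver releases. Its probe lies at chr7:52869305-52869364 on the minus strand (mm9). Fgf21 had −5.63 and −4.32 in GW3965 replicates a and b, against −5.57 and −4.65 in DMSO replicates a and b. As intensities these were 10.3 and 33.7 in GW3965 replicates a and b, and 11.4 and 24.2 in DMSO replicates a and b. The probe was well above background on the b array of each group and on neither a array, so the gene did not meet the filter and was not tested. The a arrays give no more than a bound. The b arrays were the higher under both treatments for Fgf21, which was the case for 0 of the 7 genes tested and 43.4% of all genes tested. Those shares cover only genes that passed the filter, so they are no measure for a probe as dim as that of Fgf21. With both a arrays not above background, the size of this gap is uncertain.

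**Figure D2:**
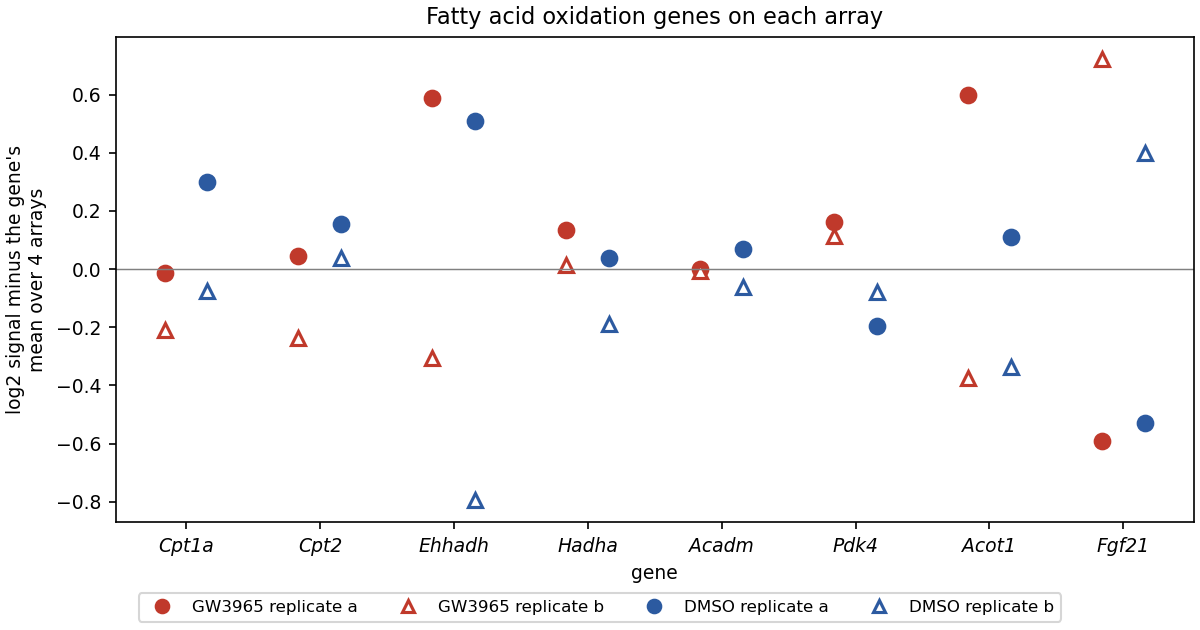
Log2 signal of the 8 genes on each of the 4 arrays (vertical axis), after subtracting each gene's mean over the arrays, with GW3965 left of DMSO for each gene and circles for replicate a and triangles for replicate b. Pdk4 is the gene with both GW3965 arrays above both DMSO arrays, while for Cpt1a, Cpt2, Ehhadh, Hadha, Acadm and Acot1 both a arrays lie above both b arrays, and for Fgf21 both lie below.

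Over the 7 genes tested, 4 had a higher mean under GW3965 and 3 a lower mean, while 48.5% of all genes had a higher and 51.5% a lower mean. At an unadjusted p under 0.05, limma called 0 of the 7, against 0.824% of all genes (0.645% higher and 0.179% lower). The median log2 difference was 0.15, against −0.01 over all genes tested. The median was −0.16 without GW3965 replicate a and −0.07 without DMSO replicate b, and it stayed above 0 when either of the other arrays was left out. Groups that did not overlap were found in 1 of the 7 genes and in 16% of all genes, by the brightest probe of each.

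**Figure D3:**
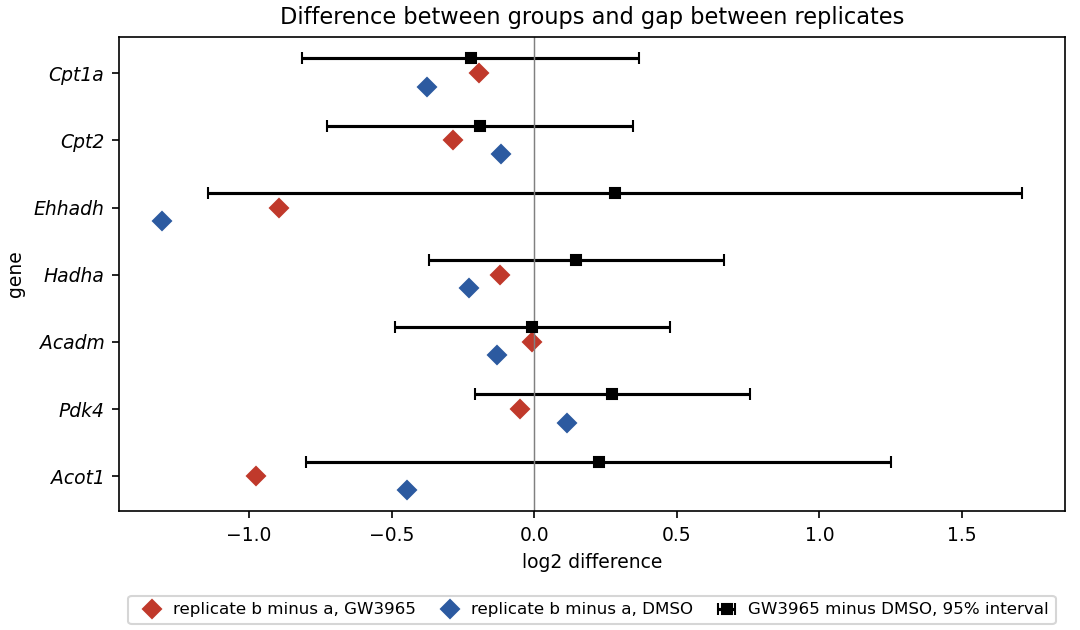
Log2 difference of GW3965 minus DMSO for the 7 genes tested (squares, with 95% intervals), beside the gap of replicate b minus replicate a within GW3965 and within DMSO (log2, diamonds). Every interval crosses 0, and the gaps of Ehhadh, −0.89 and −1.30, exceed its difference of 0.28.

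Between the replicates, most of the 7 genes lay in 1 direction. By the brightest probe of each gene, replicate b lay below replicate a in both groups for 6 of the 7 and 31.8% of all genes. It lay above replicate a in both for 0 of the 7 and 43.4% of all genes. The dimmer Cpt2 probe did not share the lower direction under GW3965. The median gap over the 7 genes was −0.19 under GW3965 and −0.23 under DMSO, against 0.05 and 0.08 over all genes. With centring on each array's median, the median gap of all genes shifted by −0.13 under GW3965 and −0.11 under DMSO, replicate b was lower in both groups for 43% of all genes, and the count among the 7 was 6. With normexp background correction the share was 41.4% and the count 5 of the 7, as the gap of Acadm under GW3965 turned to 0.0082. Both gaps were larger than the difference between treatments in 3 of the 7 genes, against 65.9% of all genes. At least 1 gap was larger in 6 of the 7, against 90.6% of all genes. A gap of over 2-fold in the same direction in both groups occurred in 0 of the 7, and in 2% of all genes with b lower.

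Markers of the cell types also differed between the replicates, in a direction that depended on the list. Over all genes tested, replicate b was lower in both groups for 31.8% and higher in both for 43.4%. All 9 hepatocyte markers kept were lower in replicate b under both treatments, by a median of 1.04 under GW3965 and 0.96 under DMSO. Their signals, in multiples of the array's 75th percentile, summed to 2756 and 1622 in GW3965 replicates a and b. In DMSO replicates a and b the sums were 2591 and 1908. Such sums mostly follow the brightest probes, here Serpina1a, Alb and Apoa2, and compare arrays, not genes or cell types. Of 10 macrophage and leukocyte markers 9 were lower in b as well, with sums of 112 and 57.9 in GW3965 replicates a and b, and 101 and 51.1 in DMSO replicates a and b. Of the endothelial markers, 7 of 7 were kept, with a median gap of 0.89 under GW3965 and 0.42 under DMSO. Their sums were 34.3 and 43.9 against 32.6 and 41.1 in the same order. Replicate b was higher in both groups for 5 of these 7, while Kdr was lower in both. Stellate cell and fibroblast markers (7 of 8 kept) had median gaps of 0.64 and 0.86, with b higher in both groups for 5 of the 7. Their sums of 86.7 and 58.4 against 81.0 and 58.7 ran the other way. The 1 stellate cell and fibroblast marker lower in b in both groups was Dcn, a proteoglycan of connective tissue. On the log2 scale Dcn had 6.16 and 4.77 in GW3965 replicates a and b, against 6.10 and 4.93 in DMSO replicates a and b. Cholangiocyte markers (4 of 5 kept) had median gaps of 0.88 and 0.67 and sums of 57.2 and 63.8 against 62.5 and 76.0. Replicate b was higher in both groups for 3 of these 4, while Sox9 was lower in both. Spp1, the brightest of them, had gaps of 0.03 and 0.21. Adipocyte and muscle markers (4 of 7 kept) had sums between 4.92 and 7.12, and Adipoq, Ckm and Myh1 were not kept. The part of these cells in the gap was not tested, and in such bulk samples fewer cells of a type and less RNA per cell cannot be told apart. Between treatments, the hepatocyte markers had a median difference of −0.03.

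The other genes of the pathway were read from 9 lists that hold 112 genes, of which 111 were kept. None passed the adjusted threshold in limma, in either direction, and 47 had a higher and 64 a lower mean under GW3965. Both GW3965 arrays were above both DMSO arrays in 10 genes and below them in 8, against 9.41% and 6.55% of all genes. Replicate b was lower in both groups in 68 of the 111 and higher in both in 33, against 31.8% and 43.4% of all genes. With centring on each array's median, the shares over all genes were 43% and 31.5%, so they depended on the scaling.

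Of PPARA and its partners, 14 of 14 genes were kept. Ppara itself had 0.34 and 0.08 in GW3965 replicates a and b, against 0.34 and 0.10 in DMSO replicates a and b. The treatments gave nearly equal values, and replicate b was the lower in both. Its difference was −0.01 ± 0.214 (SE, n = 2 each). Lpin1, a phosphatidate phosphatase that also acts as a coactivator of PPARA, had 0.59 on both GW3965 arrays, against 0.15 and −0.26 in DMSO replicates a and b. Its difference of 0.65 ± 0.223 had an unadjusted p of 0.036 by limma (n = 2 each) and an adjusted p of 1.00. Lpin1 was the 1 gene of the 111 pathway genes kept with an unadjusted p under 0.05 by limma, as 0.824% of all genes tested had. Groups did not overlap for 5 of the 14, Rxra, Ppargc1b, Lpin1, Ncor1 and Ppard, all with GW3965 above (9.41% of all genes tested). Of these, Rxra differed by 0.14 and Ppargc1b by 0.08. The corepressor Ncor1 differed by 0.28 ± 0.216, Ppard by 0.27 ± 0.188 and the second lipin, Lpin2, by 0.30 ± 0.322. In 13 of the 14, replicate b was the lower in both groups, as in 31.8% of all genes tested.

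Fatty acid entry and the carnitine shuttle gave 15 of 15 genes with a median difference of −0.01. Acsl5, a long-chain acyl-CoA synthetase, had 5.69 and 5.43 in GW3965 replicates a and b, against 5.09 and 4.97 in DMSO replicates a and b. Its difference of 0.52 ± 0.202 had an unadjusted p of 0.052 by limma (n = 2 each). Acaca, the acetyl-CoA carboxylase whose product malonyl-CoA inhibits Cpt1a, differed by 0.48 ± 0.209. Both had GW3965 above DMSO without overlap (9.41% of all genes tested), and Acsl1 and Mlycd had GW3965 below (6.55%). The muscle isoform Cpt1b differed by 0.31 ± 0.356, the fatty acid transporter Cd36 by −0.20 ± 0.241 and the carnitine carrier Slc25a20 by −0.01 ± 0.208.

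Mitochondrial beta-oxidation gave 16 of 16 genes with a median difference of −0.07. GW3965 lay above DMSO without overlap for Acads (9.41% of all genes tested) and below for Acad9, Etfa and Etfdh (6.55%). Etfdh, which passes electrons from the dehydrogenases to ubiquinone, differed by −0.20 ± 0.199, and Etfa, a subunit of its electron donor, by −0.13 ± 0.188. The auxiliary enzymes Decr1 and Eci2, which handle double bonds, differed by −0.21 ± 0.239 and −0.17 ± 0.226. Hadhb, the partner subunit of Hadha, differed by −0.09 ± 0.195.

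Peroxisomal and omega oxidation had the largest median gap between replicates among the 9 lists, −0.73 under GW3965 and −0.66 under DMSO, and a median difference between treatments of −0.06. In 16 of the 18 genes kept, replicate b was lower in both groups, as it was for Ehhadh and for 31.8% of all genes tested. Cyp4a14, a microsomal omega-hydroxylase, had 0.41 and −1.89 in GW3965 replicates a and b, against 0.40 and −1.81 in DMSO replicates a and b. Cyp4a10, of the same family, had 1.73 and −0.01 in GW3965 replicates a and b, against 1.79 and −0.24 in DMSO replicates a and b. These genes were split by replicate and hardly by treatment, with differences of −0.03 ± 1.05 for Cyp4a14 and 0.08 ± 0.887 for Cyp4a10 (SE, n = 2 each). The Cyp4a genes are close copies, so their signals are uncertain. The carnitine octanoyltransferase Crot differed by −0.23 ± 0.286 and the bifunctional enzyme Hsd17b4 by −0.14 ± 0.181. The groups did not overlap for Hsd17b4, with GW3965 lower, as in 6.55% of all genes tested. The peroxisomal acyl-CoA transporter Abcd3 differed by −0.17.

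**Figure D4:**
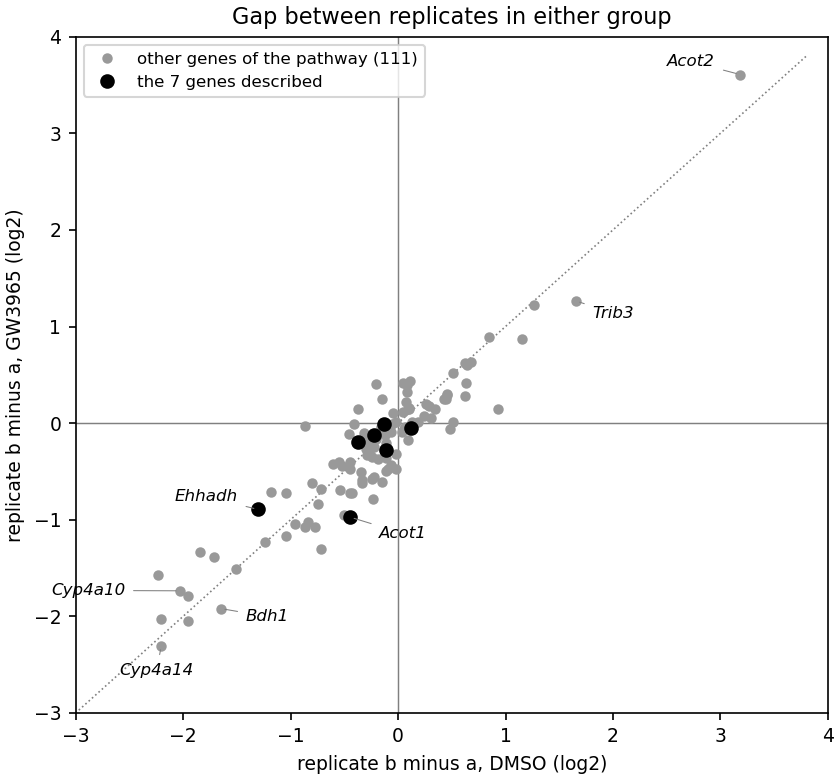
Gap of replicate b minus replicate a under GW3965 (vertical axis, log2) against the same gap under DMSO (horizontal axis, log2) for the 7 genes described (black) and 111 other genes of the pathway (grey), with a dotted line where both are equal. Ehhadh and Acot1 lie at the edge of the black points, and Acot2, Cyp4a14, Cyp4a10 and Bdh1 lie farther out.

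The acyl-CoA thioesterases other than Acot1 ran the other way between replicates, with median gaps of 0.30 under GW3965 and 0.45 under DMSO over 9 of 9 genes. Replicate b was higher in both groups for 6 of them (43.4% of all genes tested), Acot2, Acot3, Acot4, Acot5, Acot6 and Acot7. It was lower in both for 3 (31.8% of all genes tested), Acot8, Acot12 and Acot13. Their median difference between treatments was −0.0047, and the groups overlapped in all 9. Acot4 differed by 0.22, Acot7 by 0.15, Acot8 by −0.15 and Acot13 by −0.14.

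Around Pdk4, the list of pyruvate dehydrogenase, its kinases and its phosphatases gave 7 of 7 genes with a median difference of 0.07. The phosphatases, which oppose the kinases, split (SE, n = 2 each). Pdp2 lay above DMSO on both GW3965 arrays, by 0.32 ± 0.210, as 9.41% of all genes tested did. Pdp1 lay below, by −0.27 ± 0.181, as 6.55% did. Pdk2, the widely expressed kinase, differed by −0.31 ± 0.271 and the enzyme subunit Pdhb by −0.16. None of these reached an unadjusted p under 0.05 in limma.

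Ketogenesis gave 5 of 5 genes with a median difference of −0.08, all with overlapping groups. Bdh1, which makes beta-hydroxybutyrate, had gaps of −1.92 and −1.65 and a difference of −0.38 ± 0.843. The monocarboxylate transporter Slc16a1 differed by 0.21 and Acat1 by −0.04.

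Of the other PPARA targets, 16 of 16 were kept, all with overlapping groups and a median difference of −0.06. Angptl4, a secreted inhibitor of lipoprotein lipase, had 6.72 and 6.21 in GW3965 replicates a and b, against 6.71 and 6.36 in DMSO replicates a and b, a difference of −0.07 ± 0.269. The lipid droplet proteins G0s2 and Plin2 differed by 0.27 and 0.16 ± 0.265, and Tmem86a by 0.16. Plin5, another droplet protein, was split by replicate, with −0.15 and −2.19 in GW3965 replicates a and b, against 0.06 and −1.90 in DMSO replicates a and b.

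Beside Fgf21, the list of its receptors and of stress-linked genes gave 12 of 12 genes, with a median difference of −0.0010 and median gaps of 0.36 under GW3965 and 0.51 under DMSO. Replicate b was higher in both groups for 10 of the 12, against 43.4% of all genes tested. The dim Fgf21 probe lay in the same direction. Trib3 and Ddit3, which the stress response switches on, had gaps of 1.27 and 1.22 under GW3965 and of 1.65 and 1.27 under DMSO. Klb, the co-receptor of FGF21, differed between treatments by 0.08 ± 0.197. Fgfr4, the main FGF receptor of hepatocytes, ran against the list, with 1.18 and −0.85 in GW3965 replicates a and b, against 1.68 and −0.52 in DMSO replicates a and b. Fgfr3 differed by −0.31 ± 0.232, Fgfr2 by 0.10 and Nupr1 by 0.12. The groups did not overlap for Fgfr2, higher under GW3965 (9.41% of all genes tested), and Fgfr3, lower (6.55%).

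**Figure D5:**
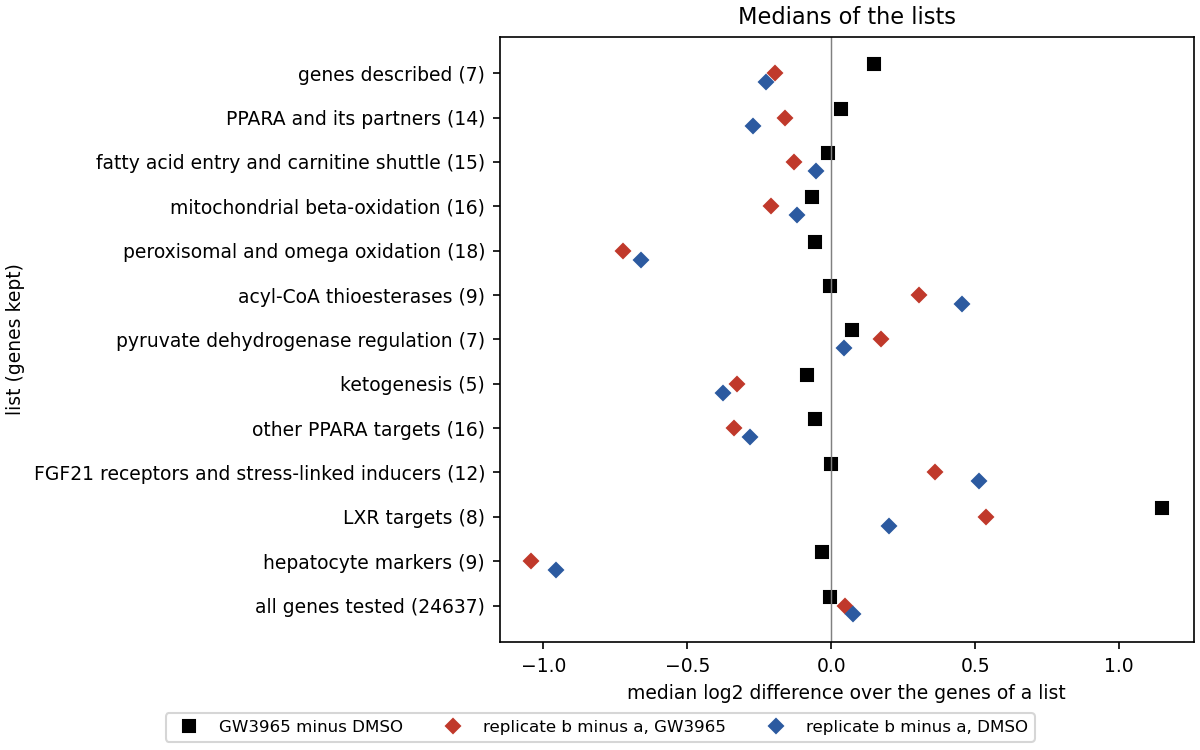
Median log2 difference over the genes of each list (horizontal axis) for GW3965 minus DMSO (squares) and for replicate b minus replicate a within GW3965 and within DMSO (diamonds), with the number of genes kept beside each list (vertical axis). Among the pathway lists, the peroxisomal one lies farthest left in its gaps (−0.73 and −0.66), and the medians for the treatment lie near 0 in all of them.

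Gaps of over 2-fold in the same direction in both groups were found in 15 of the 111 pathway genes. Replicate b was the lower in 12 (10.8%), among them Acot12, Acox2, Bdh1, Creb3l3, Cyp4a10, Cyp4a14, Cyp4a31, Cyp4a32, Fgfr4, Fitm1 and Plin5, and the higher in 3 (2.7%), Acot2, Ddit3 and Trib3. Over all genes these shares were 2% and 1.88%. Those named here were chosen after their values were seen. Of the 9 hepatocyte markers, 4 had such a gap, among them Apoa1, Hnf4a and Ttr, all lower in b.

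Likeness of pattern was measured by the root mean square difference of the 4 log2 values after subtracting each gene's mean, over the 13917 named genes that matched a protein-coding RefSeq transcript and were above background on every array. Nearest to Cpt1a were Phldb2 (0.012), Zfp455 (0.014) and Ugt2b34 (0.022), and nearest to Pdk4 were Eno2 (0.015), Adamts1 (0.016) and Sh2d1b1 (0.024). With 4 arrays such matches are common: 536 genes lay within 0.1 of Cpt1a and 448 within 0.1 of Pdk4. For Fgf21 no match was sought, as its probe was not above background on all arrays.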

How the data were processed

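Total RNA of 4 hepatocyte samples was measured on 1-colour Agilent arrays of design 028005. The authors deposited Agilent Feature Extraction files with an intensity per spot, background-subtracted by the scanner software (version 10.7.3.1 per the file headers, 11.5.1.11 per the submitters' processing notes). Probe coordinates are mm9, per the files. The deposited value table held the same intensity values for all 62976 features.

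Control and outlier spots were left out, intensities were divided by each array's 75th percentile and taken to log2, and spots of a probe were averaged. Probes were kept where 1 group or both had them well above background on each of its arrays, and the brightest kept probe stood for a gene. RefSeq accessions (GRCm38.p6 table) gave names to 26762 probes, and for 28919 the name in the files was used. limma 3.58.1 (lmFit and eBayes, R 4.3.3) compared the 2 arrays of each group with no block, with Benjamini-Hochberg adjustment over 24637 genes and a threshold of 0.05. The script was tested on simulated data with independent arrays and large changes only, which does not show its power for small differences. The number of arrays limits the precision.

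The 8 genes, the gene lists and the marker lists were chosen with earlier results of these data known. The text names the 8 genes, up to 4 genes of each list with the smallest unadjusted p, pathway genes fixed by name, 3 LXR targets, and the 3 genes most alike to Cpt1a and Pdk4; a few genes of the lists are not reported here. Genes named for a replicate gap or for groups without overlap lie outside that rule and were chosen after their values were seen. Alternatives were quantile normalization, median centring, normexp background correction (offset 50), other filters and probe rules, the deposited table, an intensity trend, the replicate letter as a block, and leaving out each array. Replicate letters did not count as pairs, since the labels do not say what they mark.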

Additional observations from a re-analysis of the deposited data

How the results depend on the processing

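No gene passed the adjusted threshold in any setting with all 4 arrays except the fit with the replicate letter as a block, which called 15. Leaving out 1 array gave 0 to 1 calls, the 1 call being without DMSO replicate b. The correlation of the gaps of the 2 groups over 24637 genes was 0.72, but with 2 pairs and no meaning of the letters in the labels, the block is given only here. None of the 7 genes passed with the block: the smallest unadjusted p was 0.083 for Pdk4 (adjusted p 0.98, limma). The SE of each of the 7 was smaller with the block than without it. It was 0.15 against 0.545 for Ehhadh and 0.17 against 0.392 for Acot1.

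At an unadjusted p under 0.05 the calls numbered 203, against 56 with normexp, 536 with no filter (35077 genes), 95 with all 4 arrays required (23566 genes), 115 with an intensity trend and 1333 with the block. They numbered 206 to 416 with 1 array left out. Cpt1a, Cpt2, Hadha and Pdk4 kept their direction in every setting run. With 1 array left out they lay between −0.41 and −0.036, −0.33 and −0.049, 0.035 and 0.26, and 0.22 and 0.33, in that order. Other filters, the deposited table, the trend and the block used the same values, left these differences unchanged and are no test of direction. Groups that do not overlap, as for Pdk4, cannot change direction when 1 array is left out. Acadm turned to 0.023 with quantile normalization and ranged from −0.072 to 0.060 with 1 array left out. Ehhadh ranged from −0.37 to 0.94 and Acot1 from −0.26 to 0.71, and the median over the 7 genes from −0.16 to 0.22. The ranges with 1 array left out follow by arithmetic from the replicate gaps, since each array left out shifts the difference by a fixed part of its group's gap. They are no separate test of direction. Median centring lowered every gap within a group by the same amount, to −0.14 under GW3965 for Acadm and to 0.0050 under DMSO for Pdk4. The gap of Acadm under GW3965 turned to 0.0082 with normexp, and the direction of the other gaps of the 7 genes did not turn in these settings. Dim probes such as that of Fgf21 are limited by their signal over background.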
